A study of Homo sapiens with 66 samples.

Results

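The question addressed here was which genes responded differently to halofuginone (HFG) in 2 myeloma lines after 24 h. The difference of effects was (HFG minus DMSO in CFZ-resistant L363) minus (HFG minus DMSO in AMO1), taken from 12 of the 66 RNAseq libraries of the series, with 3 in each of 4 groups. The 4 groups were AMO1 cells labelled wild type with DMSO, AMO1 cells with HFG, CFZr L363 cells with DMSO and CFZr L363 cells with HFG, all for 24 h. HFG, coded 13 in the sample titles, was used at 1 µM. AMO1 and L363 are established human lines grown from malignant plasma cells, and CFZr marks resistance to carfilzomib (CFZ), a proteasome inhibitor. No parental L363 cells were among the samples, so the line and its resistance cannot be told apart. How the resistant cells were derived is not given in the sources used here. Triplicates are stated for each condition, and biological triplicates for the experiments of the study in general, but what separated the replicates of these libraries is not spelled out. The p-values measure the spread between these libraries, part of which may be technical. A positive difference means that HFG raised a gene more, or lowered it less, in CFZ-resistant L363.

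HFG occupies the proline and tRNA sites of the prolyl-tRNA synthetase (ProRS) domain of glutamyl-prolyl-tRNA synthetase, the product of EPRS1. Uncharged tRNA then accumulates and activates the kinase GCN2 (EIF2AK4), which phosphorylates the initiation factor eIF2α, slows general translation and lets the transcription factor ATF4 be made. This integrated stress response (ISR) raises genes for amino acid supply, tRNA charging and, when it persists, cell death. Plasma cells secrete large amounts of antibody and lean heavily on protein synthesis and folding, which is why both proteasome inhibitors and inhibitors of tRNA charging are studied in myeloma.

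The ATF4 site is shown first because the list of ATF4 targets responded in both lines. The CARE motif, an ATF4 site, was searched as TGATGNAA on both strands in the 250 bases before each RefSeq gene start (GRCh38.p14). It occurred in 870 of 27305 such promoters (3.19%) and in 6 of the 42 ATF4 target promoters found there (14.3%), those of AARS1, ASNS, ATF3, CHAC1, HERPUD1 and IARS1. In the stretches below, 5′ to 3′ on the strand of the gene, capitals mark 1 match in each. The ASNS stretch is chr7:97872449-97872496 on the minus strand, the CHAC1 stretch is chr15:40953242-40953289 on the plus strand, and the ATF3 stretch is chr1:212565196-212565243 on the plus strand. The matches start 68, 209 and 191 bases before the gene start, and TTGCATCA is the motif read on the other strand. For ASNS the GENCODE span given below starts further upstream than the RefSeq start and includes this stretch.
ASNS: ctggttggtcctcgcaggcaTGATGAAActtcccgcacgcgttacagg
CHAC1: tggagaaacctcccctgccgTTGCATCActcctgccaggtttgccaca
ATF3: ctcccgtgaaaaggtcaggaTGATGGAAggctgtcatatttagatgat
A second set is shown for the interferon-stimulated genes, whose response to HFG differed between the lines. The interferon-stimulated response element (ISRE) was searched on both strands as a pair of GAAA elements with any 2 bases between them. It occurred in 839 of the 27305 promoters (3.07%) and in 9 of 18 interferon-stimulated promoters (50.0%), those of BST2, HERC5, IFI44, IFI6, IFIH1, IFIT1, IFIT3, IFIT5 and ISG15. A CARE match can overlap an ISRE match, and neighbouring ISRE matches can overlap each other. In the IFIT1 stretch a second match, TTTCGGTTTC, is left in lower case. IFIT1 lies at chr10:89392487-89392536 and IFIT3 at chr10:89327855-89327904, both on the plus strand, and IFIH1 at chr2:162318685-162318725 on the minus strand.
IFIT1: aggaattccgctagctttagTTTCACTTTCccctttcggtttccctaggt
IFIT3: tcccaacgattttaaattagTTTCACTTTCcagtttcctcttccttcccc
IFIH1: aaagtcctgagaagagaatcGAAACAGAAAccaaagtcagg
A match is a description of letters in a window and not a measured site.

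The libraries were shallow, with total estimated counts of 1666325 to 5005629 and 13159 to 14353 genes detected. Log2 CPM (counts scaled to a common library size) of replicates correlated at 0.97 to 0.988, except that replicate 2 of L363 with DMSO correlated at only 0.931 and 0.933 with its 2 partners, which correlated at 0.988 with each other. In that library 30.6% of the counts fell on transcripts shorter than 800 bases, against 34.5% to 36.2% in the other 11. Counts of calls are therefore also given without it. Of the marker lists, the plasma cell markers summed to 7810 to 8510 CPM in AMO1 with DMSO, 5190 to 5420 with HFG, 5040 to 8690 in L363 with DMSO and 6880 to 7380 with HFG. B cell markers reached at most 2.46 CPM, myeloid markers 3.62, erythroid and platelet markers 0.656 and stromal and epithelial markers 7.02. The T and NK cell list summed to 136 to 378 CPM, nearly all of it TRAC, while CD3D was at 0 in all 12 libraries. These marker sums are CPM of the total counts, without the scaling used for the genes below. Numbers in the column names place the AMO1 DMSO libraries in one set, the AMO1 HFG libraries in another and all 6 L363 libraries in the third of 3 sets. For AMO1 at 24 h the set and HFG therefore cannot be told apart. Among the 6 h libraries used further below, the AMO1 groups share a set, but L363 DMSO and L363 HFG lie in different sets. At 6 h the set and HFG cannot be told apart for L363.

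The AMO1 libraries with HFG also stood apart from their own controls in the genes that set the lines apart. On the log2 CPM scale they correlated with AMO1 DMSO at 0.895 to 0.909 and with L363 HFG at 0.906 to 0.928, whereas AMO1 DMSO correlated with L363 HFG at 0.832 to 0.838. Genes of the lines were chosen on the 6 h DMSO libraries, which enter no 24 h fit. By the rule of at least 20 CPM in each library of one line and at most 1 CPM in each of the other, 74 genes were AMO1 genes and 1 was an L363 gene. The L363 genes were therefore taken as the 20 with at least 20 CPM in each L363 library and at least 4 times the highest AMO1 library, a rule that 173 genes met in the AMO1 direction. In AMO1 with HFG at 24 h the AMO1 genes had a median of 29.2%, 27% and 26.5% of their AMO1 DMSO level, and 68 of the 74 fell while 3 rose. The L363 genes had a median of 21.4%, 19.9% and 20.9% of their L363 DMSO level in AMO1 with DMSO and of 50.8%, 49.5% and 47.6% with HFG. In all 6 L363 libraries the AMO1 genes stayed under 1% and the L363 genes between 96.8% and 101%. Other 24 h libraries of AMO1 differed by compound. With NCP22 and halofuginol, which share the library set of HFG, the AMO1 genes stayed at 94.4% to 104%, with NCP26 at 72.1% to 78.9% and with CFZ at 22.4% to 23.7%. In bulk RNA, fewer cells of a type and less RNA per cell cannot be told apart, and whether the AMO1 libraries held RNA of the other line was not tested.

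**Figure D1:**
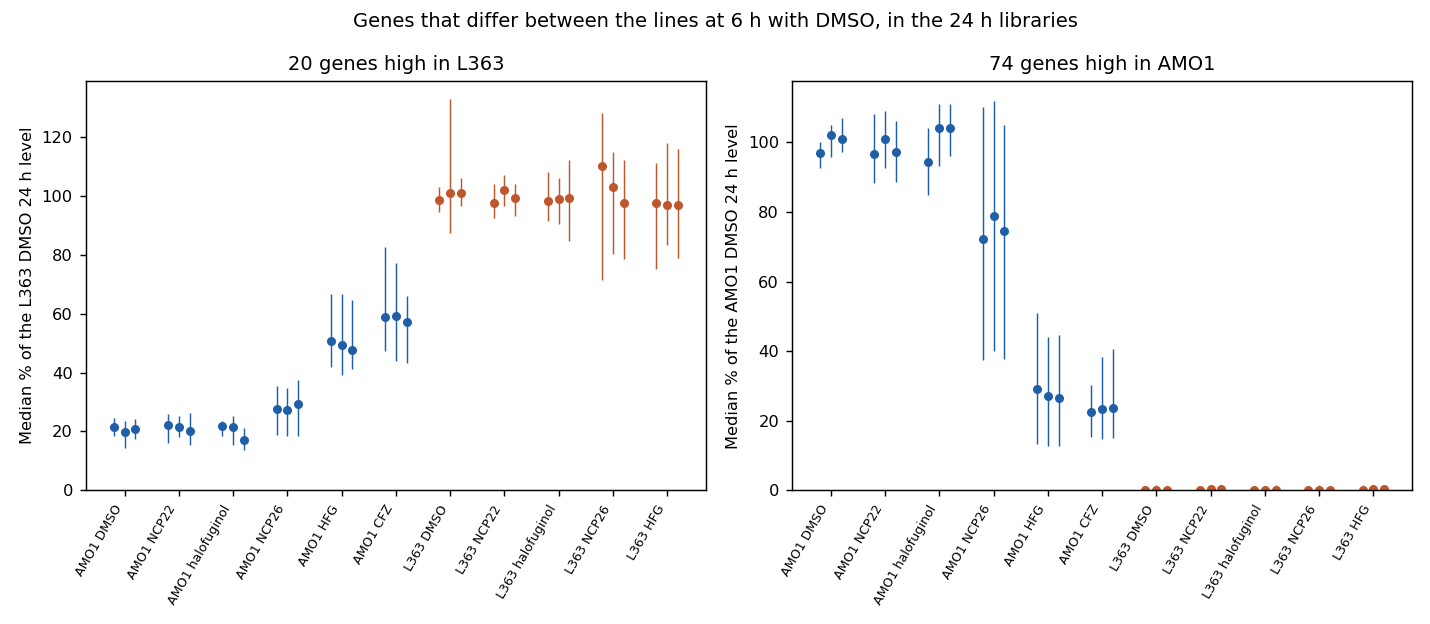
Median over the 20 L363 genes (left, percent of their mean in L363 DMSO at 24 h without replicate 2) and the 74 AMO1 genes (right, percent of their mean in AMO1 DMSO at 24 h) in each 24 h library, with 1 point a library, bars from the lower to the upper quartile of the genes and the groups on the horizontal axis. With HFG at 24 h the AMO1 libraries sit at 26.5% to 29.2% for the AMO1 genes and 47.6% to 50.8% for the L363 genes, while the L363 libraries stay near 0 and near 100.

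Calls were made by edgeR (quasi-likelihood F test) at an adjusted p under 0.05, with p adjusted by Benjamini-Hochberg across the tested genes, and CPM were scaled by TMM. For 1 gene alone, 3 libraries against 3 allow no exact permutation p below 0.1, so the calls draw on the spread across genes. The effect of HFG differed between the lines for 1883 of 11157 genes tested (16.9%), with 899 higher (8.06%) and 984 lower (8.82%) in CFZ-resistant L363. In AMO1 4529 genes changed (40.6%), 2158 up (19.3%) and 2371 down (21.3%). In L363 853 changed (7.65%), 335 up (3%) and 518 down (4.64%). Most differences lay on the AMO1 side, since 1678 of the 1883 genes had changed in AMO1 and 241 in L363. Of the 899 higher genes 882 had an effect below 0 in AMO1, and of the 984 lower genes 972 had one above 0. The AMO1 effect is subtracted in the difference, so these signs are in part fixed by its definition. By the estimates alone, called or not, the 2 effects had opposite signs for 1106 genes. They were of the same sign and larger in AMO1 for 748, and larger in L363 for only 29. A call in each line, in opposite directions, was made for 57. Another 453 genes had changed in the same direction in both lines without a call for the difference.

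Replicate 2 of L363 with DMSO set much of the spread. Without it the difference was called for 3774 of 11316 genes (33.4%), 1913 higher (16.9%) and 1861 lower (16.4%), and the L363 effect for 1854 (16.4%), 862 up (7.62%) and 992 down (8.77%). With the 6 L363 libraries fitted alone, 122 genes changed in L363. The correlation across genes of the 2 lines' effects was 0.247 with all libraries and 0.23 without replicate 2, given as a description since genes are not independent replicates. With NCP22 libraries in place of DMSO in both lines, which puts AMO1 control and HFG in the same library set, 3125 genes were called. NCP22 and halofuginol are not vehicles but compounds directed at ProRS, halofuginol being an HFG analogue, and were used at 1 µM. The study reports that both clustered with DMSO in AMO1 and relates this to lower or absent potency. Values with these controls compare HFG with another compound. The counts over gene lists below are to be read against these shares of all genes, and a list close to them is described only. The shares also varied with the starting level, taken as L363 minus AMO1 in the 6 h DMSO libraries. Of 1894 tested genes at -1.5 to -0.5 log2, 403 were higher and 37 lower. Lists with a median in that range included ATF4 targets (-0.533), serine and one-carbon enzymes (-0.642) and death genes (-0.532). G1/S (-0.754), G2/M (-0.512) and hypoxia and glycolysis genes (-0.705) did too.

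**Figure D2:**
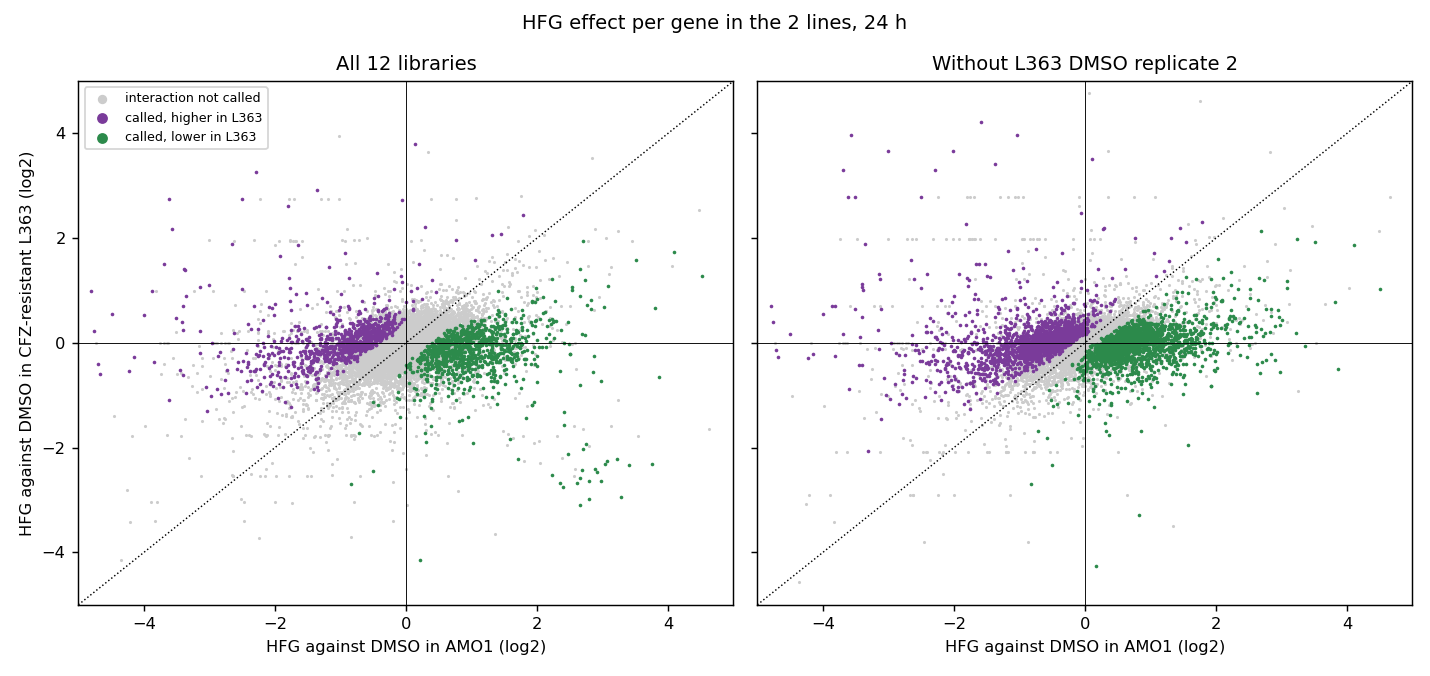
HFG effect in CFZ-resistant L363 (log2, vertical axis) against AMO1 (log2, horizontal axis), 1 point a gene, for all 12 libraries and without replicate 2 of L363 DMSO, with genes called for the difference coloured. The axes end at 5 on the log2 scale, so 14 genes of the first panel and 15 of the second lie outside, and the cloud is wider along the AMO1 axis than along the L363 axis.

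Genes of the ISR rose in both lines, and those that differed were not all on the same side. Of 49 ATF4 targets tested, 39 rose and 4 fell in AMO1 (median 1.11 log2), and 38 rose and 0 fell in L363 (median 1.12). The medians over all tested genes were 0.00601 and -0.0309. The difference was called higher for 12 and lower for 6, with a median of 0.15, and for 19 and 13 without replicate 2. Beside every log2 difference the value after ± is the standard error of the fit, with 3 libraries a group.

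ASNS, the asparagine synthetase (chromosome 7, bases 97851677 to 97872542, GRCh38), was at 119.5, 125 and 118 CPM in AMO1 with DMSO and at 292, 304 and 302 CPM with HFG. In L363 it was at 72.1, 66.5 and 75.2 CPM with DMSO and at 294, 295 and 302 CPM with HFG. HFG raised it in both lines without overlap, by 1.31 ± 0.08 in AMO1 and 2.06 ± 0.08 in L363 on the log2 scale, and the difference was 0.75 ± 0.11 (adjusted p = 0.000892). SESN2, a stress sensor that restrains mTORC1, behaved alike with a difference of 0.64 ± 0.16 (adjusted p = 0.0166). GDF15, a stress-induced cytokine chosen here after its values were seen, was at 21.5, 30.9 and 24.7 CPM in AMO1 with DMSO and 39.3, 21.2 and 26.4 CPM with HFG. It was at 0, 0 and 0.247 CPM in L363 with DMSO and 1, 2.79 and 1.67 CPM with HFG. Its difference was 3.66 ± 0.99 (adjusted p = 0.0233), so it rose in L363 only. The level in L363 with DMSO was at or near 0, so its fold there rests on few counts.

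Genes of serine synthesis and one-carbon metabolism were raised more, or lowered less, in L363 for 6 of 14 members. Of the 14, 4 rose and 4 fell in AMO1, 7 rose and 3 fell in L363, and the difference was higher for 6 and lower for 0, or, without replicate 2, 7 up and 4 down in L363 and 6 higher and 2 lower for the difference. MTHFD2, a mitochondrial folate enzyme, was at 477, 469.7 and 446 CPM in AMO1 with DMSO and at 427, 457 and 444 CPM with HFG, which overlap. In L363 it went from 183, 146 and 194 CPM to 419, 410.2 and 448 CPM, without overlap. The difference was 1.36 ± 0.15 (adjusted p = 9.84e-05), and 28.1% of its 31-mers occur in other genes. SHMT2, the mitochondrial serine hydroxymethyltransferase, was at 528, 529 and 551 CPM and then 496, 528 and 513 CPM in AMO1, and at 253, 192 and 231 CPM and then 504, 522 and 483 CPM in L363. It rose in L363 alone, and its difference was 1.22 ± 0.14 (adjusted p = 0.00016). PSAT1, the phosphoserine aminotransferase, rose in both lines, by 1.78 ± 0.11 in AMO1 and 2.43 ± 0.11 in L363, with a difference of 0.65 ± 0.15 (adjusted p = 0.0114). SHMT1, the cytosolic counterpart of SHMT2, fell in AMO1 (-1.61 ± 0.14) and had a difference of 1.23 ± 0.20. For PHGDH, the first enzyme of the serine route, the difference was -0.27 ± 0.18 and not called (adjusted p = 0.343), but it was called lower without replicate 2 (-0.43 ± 0.09, adjusted p = 0.000887).

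ATF4 itself differed at the RNA level. The library values were 689, 749 and 724 CPM with DMSO and 734, 775 and 779.6 CPM with HFG in AMO1, and 509, 326 and 470.3 CPM and 871, 866 and 849.6 CPM in L363. HFG raised ATF4 RNA in L363 by 0.99 ± 0.14, while the AMO1 effect was 0.08 ± 0.13 and not called, and the difference was 0.90 ± 0.19 (adjusted p = 0.00652). IMPACT, an inhibitor of GCN2, rose in AMO1 and had a difference of -1.26 ± 0.27. EIF2AK4, which encodes GCN2, also rose in AMO1 (difference -0.70 ± 0.20), and EIF2S3, a subunit of eIF2, fell there (difference 0.54 ± 0.13, with 32.2% shared 31-mers). Among the 17 eIF2 kinases and regulators, 7 rose and 2 fell in AMO1, 3 rose and 0 fell in L363, and 2 were higher and 2 lower for the difference, or, without replicate 2, 8 up in L363 and 3 higher and 4 lower for the difference.

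Other ATF4 targets rose more in AMO1, some of them with calls that depended on single libraries. STC2, a secreted glycoprotein, was at 31.3, 37.4 and 38.7 CPM with DMSO and 148, 150.5 and 148 CPM with HFG in AMO1. In L363 it was at 134, 142 and 120.0 CPM and 184, 183 and 179 CPM. It rose in both lines, and the difference was -1.58 ± 0.14 (adjusted p = 1.92e-05). CBS, which makes cystathionine, likewise rose in both (difference -1.48 ± 0.14), and VLDLR, a lipoprotein receptor, rose in AMO1 (difference -1.43 ± 0.21). ATF3, an ATF4-induced repressor, was at 19.2, 21 and 18.1 CPM and 86.1, 98.8 and 88.8 CPM in AMO1 and at 5.01, 4.28 and 7.17 CPM and 16.4, 14 and 9.03 CPM in L363, with a difference of -1.01 ± 0.30 (adjusted p = 0.0374). The cystine transporter SLC7A11 rose in both lines, by 2.70 ± 0.16 and 1.95 ± 0.16, with a difference of -0.75 ± 0.23 (adjusted p = 0.0441). The call was lost for ATF3 in 9, for SLC7A11 in 8 and for DDIT4 in 4 of the 12 fits that left out 1 library, and the SLC7A11 difference was -0.26 ± 0.20 with NCP22 (adjusted p = 0.377) and -0.40 ± 0.24 with halofuginol controls (adjusted p = 0.213). DDIT4, a stress-induced inhibitor of mTORC1, instead fell in AMO1 (-0.64 ± 0.15) and had a difference of 0.80 ± 0.21.

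Several well-known ISR genes showed no call for the difference, with or without replicate 2. For CHAC1, which degrades glutathione, the effects were 2.83 ± 0.17 in AMO1 and 3.54 ± 0.21 in L363 and the difference was 0.71 ± 0.29 (adjusted p = 0.116). For DDIT3, which encodes the death-promoting factor CHOP, it was -0.10 ± 0.27 (adjusted p = 0.845, 10.2% shared 31-mers). TRIB3, a pseudokinase that restrains ATF4, had a difference of 0.23 ± 0.13 (adjusted p = 0.255) and the hepatokine gene INHBE one of 0.16 ± 0.17 (adjusted p = 0.555), both of them called with NCP22 as the control (0.33 ± 0.10 and 0.80 ± 0.14). Of the 6 target promoters with a CARE match, the difference was called higher for ASNS and lower for ATF3. The median difference was 0.11 for the 6 and 0.18 for the others.

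The aminoacyl-tRNA synthetases rose in both lines as well. Of 20 cytosolic enzymes, 13 rose and 2 fell in AMO1 (median 0.48), 11 rose and 0 fell in L363 (median 0.63), and 3 were higher and 1 lower for the difference, or, without replicate 2, 13 up in L363 and 6 higher and 4 lower for the difference. WARS1, the tryptophanyl enzyme, was at 377, 369 and 403 CPM and 671, 634 and 641 CPM in AMO1 and at 59.9, 66.5 and 63.8 CPM and 237, 266 and 239.5 CPM in L363. The groups did not overlap in either line, and the difference was 1.21 ± 0.12 (adjusted p = 5.89e-05). QARS1, the glutaminyl enzyme, fell in AMO1 (-0.71 ± 0.09) with a difference of 0.70 ± 0.12, and VARS1, the valyl enzyme, rose there by 0.51 ± 0.10 with a difference of -0.67 ± 0.14. The target EPRS1 was at 389, 367 and 381 CPM and 712, 733 and 769 CPM in AMO1 and at 569, 582 and 548 CPM and 880.5, 851 and 874 CPM in L363. It rose in both lines, and the difference of -0.35 ± 0.11 was not called (adjusted p = 0.054) but was without replicate 2 (-0.33 ± 0.06, adjusted p = 0.000243).

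Among the 11 genes of proline synthesis and the prolyl-tRNA synthetases, 4 rose and 3 fell in AMO1, 2 rose and 0 fell in L363, and 2 were higher and 1 lower for the difference, or, without replicate 2, 2 up and 1 down in L363 and 3 higher and 4 lower for the difference. P4HA1, a prolyl hydroxylase of collagen, was at 474, 478 and 459 CPM and 225, 242 and 224 CPM in AMO1 and at 529.6, 432 and 515 CPM and 508, 466 and 485 CPM in L363. It fell in AMO1 alone, with a difference of 1.01 ± 0.13 (adjusted p = 0.000346). PEPD, a dipeptidase that releases proline, rose in AMO1 by 1.51 ± 0.20 and had a difference of -1.38 ± 0.26 (adjusted p = 0.00357). ALDH18A1, the first enzyme of proline synthesis, fell slightly in AMO1 (difference 0.42 ± 0.12), and PYCR1, the last enzyme, had a difference of -0.26 ± 0.13 that was not called (-0.28 ± 0.10 without replicate 2, where it was called at an adjusted p of 0.0299). PYCR1 has 11.1% shared 31-mers. The ALDH18A1 call was lost in 5 of the 12 fits that left out 1 library. Of 19 amino acid transporters, 11 rose and 3 fell in AMO1 and 7 rose and 1 fell in L363, with 2 higher and 4 lower for the difference, or, without replicate 2, 11 up and 1 down in L363 and 7 higher and 5 lower for the difference. SLC38A2, a neutral amino acid carrier, had a difference of 0.69 ± 0.13, and the carriers SLC36A4 and SLC38A10 had -1.07 ± 0.21 and -0.81 ± 0.18.

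Genes of hypoxia and glycolysis fell in AMO1, and the number that fell in L363 depended on 1 library. Of 29 tested, 26 fell and 2 rose in AMO1 (median -1.27), 1 fell and 0 rose in L363 (median -0.14), and 24 were higher and 0 lower for the difference, beside 8.06% of all genes higher. Without replicate 2, 14 fell and 1 rose in L363 and the counts for the difference were 25 and 2, and with NCP22 as the control 25 and 3. NDRG1, a stress gene induced by low oxygen, was at 331, 356 and 323 CPM with DMSO and 60.7, 57.7 and 62.1 CPM with HFG in AMO1. In L363 it was at 97.7, 90.2 and 81.9 CPM and 75.3, 70.2 and 67.9 CPM. The AMO1 groups lay far apart, and the difference was 2.15 ± 0.13 (adjusted p = 2.06e-06). PFKP, a phosphofructokinase, was at 336, 333 and 326 CPM and 110.3, 84 and 95.6 CPM in AMO1 and at 267, 270.3 and 275 CPM and 252, 242 and 230.1 CPM in L363, with a difference of 1.62 ± 0.14 (adjusted p = 1.68e-05). HILPDA, a lipid droplet protein of hypoxic cells, had a difference of 1.51 ± 0.15. PGK1, LDHA and GAPDH, enzymes of lower glycolysis, had differences of 1.47 ± 0.19, 0.95 ± 0.20 and 0.97 ± 0.22, each through a fall in AMO1.

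The p53 targets also fell in AMO1 and not in L363. Of 21 tested, 16 fell and 0 rose in AMO1 (median -0.70), 2 rose and 0 fell in L363 (median 0.065), and 13 were higher and 0 lower for the difference, or 15 and 0 without replicate 2. CDKN1A, the cell cycle inhibitor p21, was at 356, 429 and 374 CPM with DMSO and 86.7, 87.8 and 80.7 CPM with HFG in AMO1. It was at 10.5, 6.22 and 9.4 CPM and 11.1, 12.9 and 12.4 CPM in L363, where the level was low throughout. The difference was 2.62 ± 0.22 (adjusted p = 1.26e-05). MDM2, the ligase that restrains p53, was at 912, 901 and 845 CPM and 362, 387 and 371 CPM in AMO1 and at 66.4, 107 and 67 CPM and 76.3, 67.1 and 74.3 CPM in L363, with a difference of 1.11 ± 0.22 (adjusted p = 0.00416). SESN1, which restrains mTORC1, had a difference of 1.81 ± 0.15, and TP53INP1, a promoter of p53-dependent death, one of 1.52 ± 0.22. The list started lower in L363, with a median L363 minus AMO1 of -1.66 log2 in the 6 h DMSO libraries. Its median difference was 0.81. Of all 397 tested genes that started at -3 to -1.5, 124 were called higher, with a median difference of 0.99.

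Cell death genes moved in both directions. Of the 22 BCL2 family members and death receptors, 7 rose and 8 fell in AMO1, 4 rose and 0 fell in L363, and 7 were higher and 2 lower for the difference, or, without replicate 2, 7 up in L363 and 9 higher and 5 lower for the difference. CASP8, the caspase of death receptor signalling, was at 153, 164 and 143 CPM and 98.8, 93.3 and 99 CPM in AMO1 and at 81.1, 80.1 and 81.4 CPM and 93.4, 112 and 107 CPM in L363. It fell in AMO1 and rose in L363, with a difference of 1.02 ± 0.13 (adjusted p = 0.000304). BBC3, the pro-death protein PUMA, had a difference of 1.10 ± 0.20 and BCL2L1, the survival protein BCL-XL, one of -0.85 ± 0.16. MCL1, a survival protein of plasma cells, had a difference of 0.50 ± 0.12 (adjusted p = 0.0138).

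Cell cycle genes fell in both lines, and some of them further in AMO1. Of 33 G1/S genes, 30 fell in AMO1 (median -1.27) and 23 in L363 (median -0.64), 0 rose in either, and 11 were higher and 0 lower for the difference, or 17 and 0 without replicate 2. CDT1, a licensing factor of DNA replication, was at 122, 126 and 124 CPM and 28.9, 31.4 and 29.1 CPM in AMO1 and at 35.3, 45.1 and 36.4 CPM and 29.8, 29 and 26.1 CPM in L363. It fell in both lines without overlap, and the difference was 1.60 ± 0.16 (adjusted p = 5.33e-05). TYMS, the thymidylate synthase, had a difference of 1.07 ± 0.22 (54.2% shared 31-mers) and MCM5, a subunit of the replicative helicase, one of 0.95 ± 0.20. Of 34 G2/M genes, 30 fell in AMO1 and 24 in L363, 0 rose, and 4 were higher and 0 lower for the difference, or, without replicate 2, 31 down in L363 and 7 higher and 1 lower for the difference. TTK, a spindle checkpoint kinase, had a difference of 1.32 ± 0.31, the DNA topoisomerase TOP2A one of 0.54 ± 0.14 and the mitotic kinase AURKA one of 0.69 ± 0.20. The calls of TOP2A and AURKA were lost in 3 and 6 of the 12 fits that left out 1 library.

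Sterol synthesis genes fell in both lines. Of 31 sterol and fatty acid synthesis genes, 20 fell in AMO1 (median -0.56) and 17 in L363 (median -0.55), 0 rose, and 5 were higher and 2 lower for the difference, or, without replicate 2, 20 down in L363 and 8 higher and 5 lower for the difference, with 2 rising in AMO1. INSIG1, the sterol sensor of the endoplasmic reticulum, was at 358, 351 and 374 CPM and 61.8, 63.2 and 72.6 CPM in AMO1 and at 175, 151 and 181 CPM and 80.0, 89.8 and 90.3 CPM in L363. It fell in both lines, with a difference of 1.48 ± 0.14 (adjusted p = 3.96e-05). FDFT1, the squalene synthase, and HMGCS1, the HMG-CoA synthase, had differences of 1.19 ± 0.15 and 1.08 ± 0.16.

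Interferon-stimulated genes rose in both lines, and 7 of 24 had a larger rise in AMO1. Of 24 tested, 21 rose and 1 fell in AMO1 (median 1.40), 14 rose and 0 fell in L363 (median 0.74), and 1 was higher and 7 lower for the difference, or 2 and 10 without replicate 2. MX1, an antiviral GTPase, was at 19.6, 18.3 and 22.8 CPM and 141, 134 and 134 CPM in AMO1 and at 50.3, 52.9 and 53.9 CPM and 113, 133 and 115 CPM in L363. It rose without overlap in both lines, and the difference was -1.54 ± 0.15 (adjusted p = 3.96e-05). IFIT3, an RNA-binding antiviral protein, was at 3.77, 1.69 and 2.06 CPM and 32.9, 34.4 and 32.8 CPM in AMO1 and at 3, 3.5 and 2.23 CPM and 4.69, 4.54 and 4.35 CPM in L363, with a difference of -3.14 ± 0.39 (adjusted p = 0.000257). IFIT1 and IFIH1, an antiviral effector and an RNA sensor, had differences of -3.24 ± 0.63 and -0.58 ± 0.13. Over the 9 genes with an ISRE match the median effect was 2.12 in AMO1 and 1.2 in L363, and over the other 9 it was 0.97 and 0.69. The difference was called lower for 3 of the matched genes, namely IFIT1, IFIT3 and IFIH1, and higher for 0.

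HLA-DRA and HLA-DPA1, MHC class II genes that present antigen, were among the genes called in opposite directions, falling in AMO1 and rising in L363. They were picked from those genes, and the other class II genes were not tallied. HLA-DRA was at 712, 736 and 741 CPM and 226, 199.7 and 218 CPM in AMO1 and at 110.2, 63.4 and 111 CPM and 166, 170.5 and 159.6 CPM in L363. HLA-DPA1 was at 154, 166 and 173 CPM and 34.1, 41.6 and 43.2 CPM in AMO1 and at 19, 10.9 and 14.3 CPM and 24.1, 23.8 and 23.4 CPM in L363. Their differences were 2.56 ± 0.23 and 2.70 ± 0.22, and CD74, the invariant chain of class II, had one of 1.52 ± 0.16 (adjusted p = 7.97e-05). At 6 h the effects in AMO1 and L363 were -1.48 and -0.28 for HLA-DRA, -1.09 and -0.34 for HLA-DPA1 and -0.84 and -0.46 for CD74.

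Immediate early and NF-kB genes rose in AMO1 and were not called in L363. Of 20 tested, 12 rose and 3 fell in AMO1, and 2 were higher and 9 lower for the difference. In L363 0 changed by edgeR, where 2 lay above and 3 below 0 at an unadjusted p under 0.05, and DESeq2 also called 0 while limma voom called 3 higher and 2 lower. Without replicate 2 edgeR called 2 higher and 2 lower in L363 and 3 higher and 12 lower for the difference. JUN, a subunit of AP-1, was at 36.9, 43.2 and 38.7 CPM and 164, 149.7 and 138 CPM in AMO1 and at 37.3, 30.7 and 31.9 CPM and 29.5, 33.2 and 26.4 CPM in L363, with a difference of -2.09 ± 0.17 (adjusted p = 1.26e-05). KLF6, a zinc finger factor, had a difference of -1.19 ± 0.15. KLF2, which keeps lymphocytes quiescent, was 1 of the 3 that fell in AMO1 and 1 of the 2 called higher, at 126, 130.3 and 126 CPM and 8.67, 12.7 and 11.5 CPM in AMO1 and at 3, 5.83 and 4.7 CPM and 5.02, 5.24 and 8.03 CPM in L363. Its difference of 3.99 ± 0.33 was the highest of all genes named by size.

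Replication-dependent histone genes, whose RNAs mostly lack the poly(A) tail on which the libraries were selected, rose in AMO1. Of 40 listed, 18 were in the table and 11 tested, of which 10 rose in AMO1 (median 1.36) and 2 were lower for the difference, or 7 without replicate 2. In L363 0 changed by edgeR (median 0.42), where 2 lay above 0 at an unadjusted p under 0.05, DESeq2 called 0 and limma voom 1. H2BC12 was at 41.1, 40.0 and 42.8 CPM and 106, 107 and 106 CPM in AMO1 and at 50.8, 45.1 and 67 CPM and 56.6, 67.4 and 76.9 CPM in L363, with a difference of -1.07 ± 0.20 (adjusted p = 0.00355, 71% shared 31-mers). H2BC11 had a difference of -2.18 ± 0.53, which was not called without replicate 3 of L363 DMSO. H2BC15, with 12.2% shared 31-mers, had one of -1.10 ± 0.46 that was not called.

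Among genes of plasma cell identity, the share that fell in AMO1 was above that of all genes and the share that rose was close to it. Of 37 plasma cell and myeloma genes, 7 rose and 17 fell in AMO1, 3 rose and 3 fell in L363, and 10 were higher and 4 lower for the difference, or 20 and 4 without replicate 2, where 7 rose and 9 fell in L363. The shares of all genes in AMO1 were 19.3% up and 21.3% down. SDC1, the surface antigen CD138, was at 2511, 2570 and 2780 CPM and 1137, 1056 and 1002 CPM in AMO1 and at 593, 576 and 539.5 CPM and 586, 604 and 611 CPM in L363. AMO1 with HFG came down toward the L363 level, and the difference was 1.37 ± 0.13 (adjusted p = 3.19e-05). SLAMF7, a surface receptor of plasma cells, was at 99.9, 102 and 114 CPM and 329.9, 318 and 335 CPM in AMO1 and at 93.2, 87.9 and 85.6 CPM and 95.1, 94.3 and 94 CPM in L363, with a difference of -1.55 ± 0.12 (adjusted p = 7.69e-06). POU2AF1, a B cell coactivator, was at 725, 716 and 719 CPM and 199.9, 179 and 184 CPM in AMO1 and at 163, 207 and 149.9 CPM and 154, 174 and 158 CPM in L363, with a difference of 1.85 ± 0.16.

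MYC, IRF4, XBP1 and PIM2 had smaller differences than SDC1, SLAMF7 and POU2AF1. MYC, an oncogenic transcription factor, was at 429, 424 and 441 CPM and 289, 263 and 282 CPM in AMO1 and at 339, 339.5 and 331 CPM and 399, 388 and 407 CPM in L363. It fell in AMO1, the L363 effect was 0.24 ± 0.08, and the difference was 0.88 ± 0.11 (adjusted p = 0.000257). IRF4, on which myeloma cells depend, rose in L363 (difference 0.80 ± 0.17), XBP1, a factor of the secretory programme, rose in AMO1 (difference -0.85 ± 0.18), and PIM2, a survival kinase, fell there (difference 0.83 ± 0.12). The differences of PRDM1 (0.33 ± 0.18), TCF3 (0.21 ± 0.12), CCND1 (1.96 ± 0.68, 10.2% shared 31-mers) and CCND2 (-0.07 ± 0.25) were not called. Without replicate 2 all 4 were called, at 0.52 ± 0.09, 0.27 ± 0.06, 2.15 ± 0.82 and 0.24 ± 0.07, the last with the opposite sign.

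Among NRF2 targets, which respond to oxidative stress, the iron-storage and haem genes differed. Of 16 tested, 4 rose and 3 fell in AMO1, 5 rose and 1 fell in L363, and 4 were higher and 2 lower for the difference, or, without replicate 2, 6 up and 3 down in L363 and 5 higher and 2 lower for the difference. HMOX1, which degrades haem, was at 22.6, 23.4 and 23.5 CPM and 50.8, 35.2 and 41.5 CPM in AMO1 and at 95.2, 57.6 and 99 CPM and 32.5, 30.1 and 28.4 CPM in L363. It rose in AMO1 and fell in L363, with a difference of -2.34 ± 0.28 (adjusted p = 0.000172). At 6 h it fell in both lines (-1.63 ± 0.17 in AMO1 and -1.20 ± 0.09 in L363). FTH1 and FTL, the chains of ferritin, had differences of 1.30 ± 0.14 and 1.45 ± 0.21, the former with 44.9% shared 31-mers. FTH1 rose in L363 and FTL fell in AMO1.

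Of 9 drug efflux transporters, 3 rose and 0 fell in AMO1, 1 rose and 1 fell in L363, and 0 were higher and 3 lower for the difference, or, without replicate 2, 1 up and 2 down in L363 and 1 higher and 4 lower for the difference, with 3 falling in AMO1. ABCB1, the multidrug pump P-glycoprotein (chromosome 7, bases 87503017 to 87713323, GRCh38), was at 249.8, 222 and 239.5 CPM in AMO1 with DMSO and at 1108, 1156 and 1197 CPM with HFG. In L363 it was at 1601, 1867 and 1748 CPM with DMSO and at 2302, 2265 and 2395 CPM with HFG. It rose in both lines, and every L363 library lay above every AMO1 library. The difference was -1.87 ± 0.13 (adjusted p = 5.26e-06). ABCB1 is 1 of the 20 L363 genes above. ABCB6, a porphyrin transporter, and ABCA3, a lipid transporter, had differences of -0.65 ± 0.12 and -1.40 ± 0.38, the latter with a call that was lost in 5 of the 12 fits that left out 1 library.

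The ribosomal protein genes depended on replicate 2 of L363 DMSO. All 44 had a difference above 0 (median 0.70), yet 1, RPL26, was called higher (1.32 ± 0.41, adjusted p = 0.0427) and 0 lower, while without replicate 2 the median was 0.39 and 38 were called higher. RPL26 was at 1715, 1822 and 1744 CPM and 1078, 1075 and 1054 CPM in AMO1 and at 857, 275 and 812 CPM and 936, 1006 and 1009 CPM in L363. The second L363 DMSO library lay below its partners. By edgeR with all libraries 0 changed in either line, while without replicate 2, 7 rose and 30 fell in AMO1 and 37 rose in L363. The RPL26 call was lost in 9 of the 12 fits that left out 1 library, though not in the fit without replicate 2. At an unadjusted p under 0.05, 5 lay below 0 in AMO1 and 14 above 0 in L363. DESeq2 called 1 lower in AMO1 and 0 in L363, and limma voom called 3 higher and 27 lower in AMO1 and 22 higher in L363. RPL37 and RPSA had differences of 1.09 ± 0.37 and 0.74 ± 0.25, the latter with 47.2% shared 31-mers, and both were called without replicate 2 (0.75 ± 0.05 and 0.50 ± 0.05).

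The same library touched other housekeeping lists. Of 30 proteasome subunits 8 rose in AMO1, and by edgeR 0 changed in L363 and 0 were called for the difference, against 8 lower without replicate 2, where 19 rose and 3 fell in AMO1 and 6 rose in L363. At an unadjusted p under 0.05, 8 lay above 0 in L363 and 1 below 0 for the difference, where DESeq2 called 1 and 0 and limma voom 7 and 4. PSMD1 had a difference of -0.26 ± 0.12, PSMD14 one of -0.41 ± 0.21 and PSMC1 one of 0.58 ± 0.33 (79.7% shared 31-mers), none of them called, although PSMD1 and PSMD14 were without replicate 2 (-0.28 ± 0.09 and -0.60 ± 0.11). Of the 13 mitochondrially encoded transcripts, 6 rose in AMO1 and 2 were lower for the difference, against 1 higher and 10 lower without replicate 2. In L363 0 changed by edgeR, where 2 lay below 0 at an unadjusted p under 0.05, DESeq2 called 0 and limma voom 1 higher and 2 lower. MT-ND2, a subunit of complex I, had a difference of -0.53 ± 0.13, MT-CO2 of complex IV one of -0.45 ± 0.14 and MT-ATP6 of the ATP synthase one of -0.51 ± 0.17. The calls of MT-ND2 and MT-CO2 were lost in 3 and 11 of the 12 fits that left out 1 library. Mitochondrial transcripts took 4.34% to 4.49% of the counts in AMO1 with DMSO, 5.11% to 5.66% with HFG, 7.91% to 8.75% in L363 with DMSO and 7.49% to 7.76% with HFG.

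For the lists of folding and growth many counts lay near the shares of all genes, and several moved without replicate 2. Of 32 endoplasmic reticulum genes, 6 rose and 12 fell in AMO1, 2 rose and 0 fell in L363, and 7 were higher and 3 lower for the difference, or, without replicate 2, 8 up and 7 down in L363 and 12 higher and 7 lower for the difference. SEC24D, a coat protein of vesicles leaving that compartment, had a difference of 0.87 ± 0.14, and DERL3, a degradation factor, one of 1.02 ± 0.21 (83.3% shared 31-mers). HSPA5, its main chaperone BiP, had a difference of 0.02 ± 0.14 (adjusted p = 0.957). Of 22 heat shock genes, 4 rose and 9 fell in AMO1, 1 rose and 1 fell in L363, and 4 were higher and 2 lower for the difference, or, without replicate 2, 2 up and 10 down in L363 and 7 higher and 6 lower for the difference. The chaperone genes HSPD1, HSPA8 and BAG3 had differences of 0.97 ± 0.20, 0.70 ± 0.15 and 0.61 ± 0.14.

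Of 29 ribosome biogenesis genes, 2 rose and 6 fell in AMO1, and 2 were higher and 1 lower for the difference, beside 19.3%, 21.3%, 8.06% and 8.82% of all genes. The counts were 3 up and 2 down in L363 and 6 higher and 2 lower for the difference without replicate 2. In L363 0 changed by edgeR, where 3 lay above and 2 below 0 at an unadjusted p under 0.05, DESeq2 called 1 higher and limma voom 2 higher and 2 lower. The nucleolar proteins NCL and FBL had differences of 0.69 ± 0.15 and 1.02 ± 0.25, and the helicase DDX21 one of -0.47 ± 0.12, whose call was lost in 3 of the 12 fits that left out 1 library. Of 22 autophagy and mTORC1 regulators, 8 rose and 3 fell in AMO1, 5 rose and 0 fell in L363, and 4 were higher and 3 lower for the difference, or, without replicate 2, 6 up in L363 and 4 higher and 5 lower for the difference, with 13 rising in AMO1. DEPTOR, an mTOR inhibitor, and RRAGD, a GTPase that recruits mTORC1 to lysosomes, had differences of -1.07 ± 0.14 and 0.84 ± 0.15. Several lists share members, such as SESN2 and SLC7A11, which count in each.

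The other counts of 0 in a direction were also taken from edgeR. DESeq2 likewise called 0 there, except for 2 endoplasmic reticulum genes lower in L363 and 1 efflux transporter lower in AMO1. At an unadjusted p under 0.05 the counts were 3 for p53 targets lower in L363, 4 for endoplasmic reticulum genes lower in L363, 1 each for the eIF2, death and autophagy lists lower in L363, 1 each for hypoxia and G2/M genes lower for the difference, and 1 for efflux transporters lower in AMO1. They were 0 for the rest. With limma voom, 2 serine and one-carbon enzymes, 1 G2/M gene and 2 hypoxia genes were lower for the difference and 1 efflux transporter was higher. In L363, limma voom also called 7 endoplasmic reticulum genes, 1 p53 target and 1 proline gene lower and 1 hypoxia gene higher. In AMO1 it called 2 sterol genes higher and 2 proteasome subunits, 1 mitochondrial transcript and 2 efflux transporters lower.

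The 10 genes with the highest difference, at a mean of at least 5 CPM in each line, were KLF2, STS, RCSD1, IL16, CDKN1C, SEPTIN9, PTPN6, HLA-DPA1, MAGED1 and CDKN1A, from 3.99 down to 2.62, and all fell in AMO1. STS, the steroid sulfatase, was at 514, 518 and 493 CPM and 32.9, 20.8 and 32.1 CPM in AMO1 and at 47.6, 59.1 and 55.2 CPM and 44.9, 44.4 and 43.8 CPM in L363, with a difference of 3.88 ± 0.20 (adjusted p = 3.47e-07). AMO1 with HFG ended below L363. RCSD1, a regulator of actin capping, was at 237, 245 and 235 CPM and 31.8, 31.4 and 29.4 CPM in AMO1 and at 38.1, 38.9 and 40.3 CPM and 41.9, 38.4 and 37.1 CPM in L363. PTPN6, a phosphatase of immune receptors, had a difference of 2.76 ± 0.25, and CDKN1C, a cell cycle inhibitor, one of 2.82 ± 0.28. The cytokine gene IL16 (2.95 ± 0.18) had 41% shared 31-mers. Of these 10, 9 were again among the 10 highest without replicate 2 of L363 DMSO, and 8 without that library and replicate 1 of AMO1 HFG.

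The 10 genes with the lowest difference were OR1N1, KCNK2, TENM1, SYN1, EHHADH, RNF222, SCARF2, NLRP13, RPTN and FAM110B, from -6.23 to -5.36, and their levels were high in 2 libraries. OR1N1, an olfactory receptor gene, was at 58, 74.5 and 62.4 CPM and 1499, 200.2 and 217 CPM in AMO1 and at 62.4, 1852 and 89.3 CPM and 88.7, 54.2 and 115 CPM in L363. Summed over the 10 genes, replicate 2 of L363 DMSO held 4579 CPM and replicate 1 of AMO1 HFG 4222, against 159 to 623 in the other 10 libraries. Without replicate 2 of L363 DMSO the OR1N1 difference was -3.04 ± 0.82, that of KCNK2 -2.91 ± 1.25 (adjusted p = 0.0782), that of SCARF2 -2.38 ± 1.25 (adjusted p = 0.151) and that of RPTN -2.25 ± 0.89 (adjusted p = 0.0563). Each of the 10 lost its call in 1 to 8 of the 12 fits that left out 1 library, all 10 without replicate 1 of AMO1 HFG. Of the 10, 4 were again among the 10 lowest without replicate 2 of L363 DMSO and 0 without both libraries. Without both, the differences of the 10 were smaller but remained called, except that of SCARF2 (-0.53 ± 0.36, adjusted p = 0.27). That of OR1N1 was then -1.49 ± 0.22 (adjusted p = 4.33e-06) and that of KCNK2 -0.78 ± 0.30 (adjusted p = 0.0435). Without both, a setting added after the data were seen, the lowest were HGH1, DUSP8, SERF1A, CT45A5, HMOX1, TICAM2, SLC46A1, TPBG, MAGI1 and GDAP1. The shared 31-mers were 94.2% for SERF1A, 83.4% for TICAM2, 63.3% for CT45A5 and 56.8% for SLC46A1. HGH1 was at 0, 0 and 2.01 CPM in L363 with HFG. In AMO1 with DMSO, TICAM2 was at 0, 0 and 6.38 CPM and CT45A5 at 15.8, 0 and 0.41 CPM. The differences of HGH1, TICAM2 and CT45A5 therefore rest on few counts. DUSP8, a phosphatase of MAP kinases, was at 3.02, 4.58 and 4.53 CPM and 34.1, 25.4 and 31.8 CPM in AMO1 and at 6.26, 13.2 and 7.42 CPM and 7.7, 3.15 and 6.69 CPM in L363. It was raised in AMO1 alone, with a difference of -3.41 ± 0.47 with all libraries and -2.99 ± 0.41 without both.

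At 24 h HFG moved 57 genes in opposite directions in the 2 lines, with a call in each line and for the difference. In 21 the difference was higher, among them ALOX5AP (4.42 ± 0.75), PLAC8 (4.28 ± 0.80), HLA-DPA1, HLA-DRA, CD74, FAS and CASP8. In 36 it was lower, among them HMOX1, RELN (-2.30 ± 0.39), MAP1A (-2.26 ± 0.42), CEBPA (-2.04 ± 0.21), CLEC7A (-1.72 ± 0.13), ETS1 (-1.45 ± 0.19), SMOC1 (-1.29 ± 0.12) and ITGB7 (-1.14 ± 0.12, 41.9% shared 31-mers). SMOC1, a secreted matrix protein, was at 97.6, 87.8 and 99.6 CPM and 179, 162 and 176 CPM in AMO1 and at 486, 466 and 448 CPM and 362, 341 and 337 CPM in L363. It started higher in L363, and the lines came closer together with HFG. HMOX1, SMOC1 and MAP1A are also among the 20 L363 genes. Without replicate 2 there were 252 such genes, among them 55 of the 57. The 2 others were ALOX5AP and FAS, whose rise in L363 was then not called (adjusted p = 0.0512 and 0.0858). ALOX5AP was at 0.501, 0 and 0 CPM in L363 with DMSO and PLAC8 at 0.25, 0.389 and 0 CPM, so their folds in L363 rest on few counts.

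The difference of effects followed how the lines stood before treatment. Baseline was the log2 difference of L363 and AMO1 in the 6 h DMSO libraries, which are not part of the 24 h fit. Among 6423 genes with a baseline between -0.5 and 0.5, 300 were higher and 247 lower, 8.52% in all. Among the 260 genes with a baseline over 1.5, 0 were higher and 180 lower (69.2%), with a median effect of 1.2 in AMO1 and -0.195 in L363. Among the 244 genes with a baseline under -3, 65 were higher and 0 lower (26.6%), with medians of -1.91 and 0. This bin includes the 74 AMO1 genes, chosen at no more than 1 CPM in each 6 h L363 DMSO library. Genes at or near 0 in L363 have little room to fall there, so the L363 median of this bin does not show a lack of response. From -3 to -1.5 there were 124 higher and 7 lower of 397, from -1.5 to -0.5 403 and 37 of 1894, and from 0.5 to 1.5 7 and 513 of 1939.

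Across the tested genes with a baseline, the correlation of the baseline with the effect was 0.606 in AMO1, 0.0637 in L363 and -0.545 for the difference. Without replicate 2 these were 0.593, -0.048 and -0.601, and with NCP22 as the control 0.606, -0.004 and -0.611. The AMO1 effect was below 0 for 92.6% of the genes in the lowest bin and 2.69% in the highest. These are descriptions across genes, which share libraries.

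**Figure D3:**
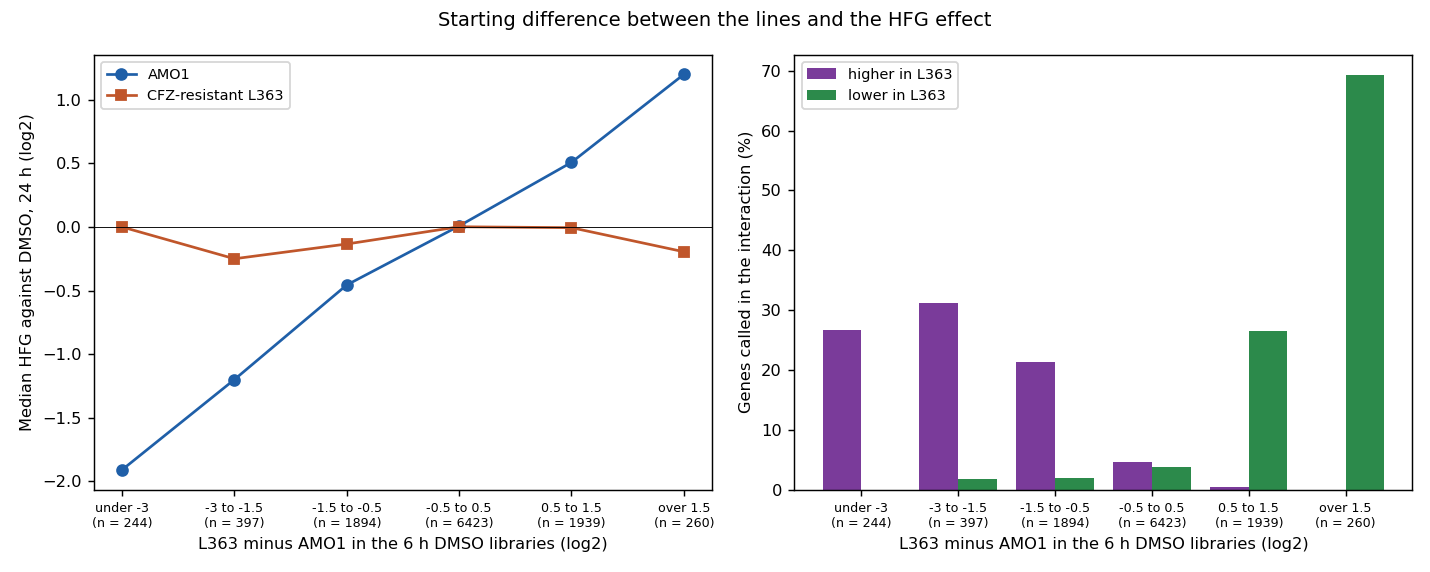
Left, median HFG effect (log2) in AMO1 and CFZ-resistant L363, and right, the percentage of genes called higher or lower for the difference, both by the baseline (bins of log2 L363 minus AMO1 in the 6 h DMSO libraries, horizontal axis). The AMO1 medians run from -1.91 in the lowest bin to 1.2 in the highest, and the L363 medians stay between -0.25 and 0. The lowest bin includes the 74 AMO1 genes, which are at or near 0 in L363 and have little room to fall there.

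The same difference of effects was taken at 6 h, from libraries that the 24 h fit does not use. At 6 h 2285 of 11061 genes were called (20.7%), 1252 higher (11.3%) and 1033 lower (9.34%). Of 10906 genes tested at both times, 671 were called at both, 36% of the 24 h calls and 29.5% of the 6 h calls, and 637 of these had the same sign. Of the 1866 genes called at 24 h among them, 1554 had the same sign at 6 h (83.3%), beside 66.3% of all genes. Without replicate 2 the shares were 75.5% and 63.6%. In L363 at 6 h DMSO and HFG lay in different library sets. With halofuginol libraries as 6 h controls, which lie in the set of HFG in each line, 2946 of 11269 genes were called (26.1%). The share of 24 h calls with the same sign was then 85.7%, beside 67.3% of all genes. At 6 h the ATF4 targets were higher for 38 and lower for 3 (median 1.00), the p53 targets for 15 and 0, the hypoxia and glycolysis genes for 16 and 1, the immediate early genes for 3 and 11, the histone genes for 0 and 10 (median -2.02) and the interferon-stimulated genes for 1 and 2. ASNS had a 6 h difference of 1.67 ± 0.10, STC2 of -0.50 ± 0.19, CDKN1A of 3.75 ± 0.21, NDRG1 of 1.47 ± 0.15, MX1 of -0.45 ± 0.09 and ABCB1 of -0.21 ± 0.08. These were picked genes, and some others had another sign or no call at 6 h. HMOX1 had -2.34 at 24 h and 0.43 ± 0.20 at 6 h, the latter not called. CASP8 had 1.02 and 0.28 ± 0.12, the latter not called. DUSP5 was called with opposite signs, at 0.73 ± 0.14 for 24 h and -0.69 ± 0.14 for 6 h. Whether a difference changed between 6 h and 24 h was not tested. In AMO1 with HFG at 6 h the L363 genes had medians of 22% to 25% of their level in L363 with DMSO at 24 h, and the AMO1 genes 61.2% to 67.9% of their level in AMO1 with DMSO at 24 h. With DMSO at 6 h these were 15.9% to 17% and 105% to 106%.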

How the data were processed

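Polyadenylated RNA of AMO1 and CFZ-resistant L363 cells was made into directional libraries and read from both ends (NextSeq 500). The authors assigned reads to transcripts with kallisto, using 31-mers, and the deposited values are whole-number estimated counts for 20167 Ensembl genes in 66 libraries, without normalization. The study's methods give GRCh38 and the submitters' processing notes hg19, while the kallisto version, its annotation and the summing to genes are left unstated in the sources used here. Reads shared by similar transcripts are divided by kallisto, so the percentage of a gene's 31-mers found in another gene is given beside named genes over 10%. It was not computed for some genes named as further list members, such as GAPDH, LDHA and PGK1. According to the methods, 24 h samples were kept on ice and 6 h samples frozen overnight before RNA extraction. Of the columns, 0 were left unused.

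Counts of the 12 libraries entered 1 fit in edgeR 4.0.16 (R 4.3.3, filterByExpr with a minimum count of 10 and total of 15, scaling by TMM, the quasi-likelihood F test on group means, Benjamini-Hochberg adjustment, threshold 0.05). CPM used the TMM-scaled library sizes, except in the marker sums, which used total counts, and where another scale is stated. The standard error of a log2 value was its size over the root of F. For alternatives DESeq2 1.42.0 and limma 3.58.1 were used, and Python 3.11.15 with pandas 2.3.3, numpy 2.4.6 and matplotlib 3.10.9 for sequences and figures. The fit was tested on simulated data with a common dispersion for all genes, no HFG effect in AMO1 and no outlying library. That test therefore does not cover a library such as replicate 2 of L363 DMSO. Positions are from GENCODE release 44 (GRCh38), where 19299 identifiers were found and 868 were not, and promoters from RefSeq.

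Named genes were the 10 highest and 10 lowest differences among called genes with a mean of at least 5 CPM in each line, a fixed set of genes, and in each gene list the 3 members with the smallest p. Others are said to be chosen after their values were seen, or were named through the genes called in opposite directions or as further list members. Some genes that met the rule are not reported here. The comparison, gene lists and fixed genes were chosen with earlier results of these data known. Alternatives were other scaling, tests and filters, all 66 libraries in one fit, NCP22 or halofuginol libraries as controls, a term for the library set, a GC content offset, the replicate number as a block and leaving out each library in turn. Same-numbered samples of DMSO and HFG were not taken as pairs, since their deviations from the group means correlated at -0.085 to 0.0131.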

Additional observations from a re-analysis of the deposited data

Results flagged for a closer look

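The effect of HFG at 24 h differed between the lines for 1883 genes, by a test of the difference itself, for 3774 without replicate 2 of L363 with DMSO, and for 2285 at 6 h in other libraries. At 6 h the library set and HFG cannot be told apart in L363. Among the genes that HFG moved in opposite directions, the difference on the log2 scale was 2.70 for HLA-DPA1, 1.02 for CASP8 and -2.34 for HMOX1. At 24 h HLA-DPA1 and CASP8 fell in AMO1 and rose in CFZ-resistant L363, and HMOX1 rose in AMO1 and fell in L363. At 6 h HMOX1 fell in both lines (-1.63 in AMO1 and -1.20 in L363). HLA-DPA1 was then at -1.09 and -0.34, the latter not called, and CASP8 at -0.16 and 0.11.

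Signals were also found in libraries outside the comparison. In AMO1 with CFZ at 24 h the 20 L363 genes had medians of 58.8%, 59.3% and 57.3% of their level in L363 with DMSO, against 21.4%, 19.9% and 20.9% in AMO1 with DMSO. Replicate 2 of AMO1 with CFZ at 24 h held 5513 CPM summed over the 10 genes with the lowest difference. The same sum was 5136 in replicate 3 of L363 with halofuginol and 1961 in replicate 1 of AMO1 with NCP22 at 24 h, groups that also served as alternative controls, and 3130 in replicate 2 of AMO1 with HFG at 6 h. These sums are on another scale than those given earlier for the 12 libraries. On it, replicate 2 of L363 DMSO at 24 h held 4133 CPM and replicate 1 of AMO1 HFG at 24 h 4116. The genes were chosen for the lowest difference, which libraries of the comparison with high levels decided, and the cause of the signal in these libraries was not tested. The check for a single outlying value needs more than 3 samples a group and was not run.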

How the results depend on the processing

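The number of genes called for the 24 h difference was 1883. With all 66 libraries in one fit it was 3134 (26.6%), and with a term for the library set added to that fit 1516 (12.3%). Of the 1883 genes, 1163 (61.8%) were called in the fit with this term too. The number was 3943 with limma voom and quality weights, and 3125 with NCP22 and 3970 with halofuginol libraries as controls. It was 1353 to 3774 when each library was left out in turn, the highest without replicate 2 of L363 DMSO. Without that library and replicate 1 of AMO1 HFG, a setting chosen after seeing the data, it was 3733, and among genes alike in the 6 h DMSO libraries of both lines, also chosen then, 547, which counts fewer genes. The L363 effect was called for 853 genes, and for 1987 with limma voom, 2385 with all 66 libraries, 1513 with NCP22 and 2214 with halofuginol controls, 2389 with a term for the library set, 2078 without both libraries, 122 with the 6 L363 libraries alone and 343 to 1854 when each library was left out. The AMO1 effect (3638 to 6585 without a library, 3291 with a term for the library set) and the 6 h difference (1773 to 2362) stayed within 1.5 times of 4529 and 2285 under each alternative tried. For AMO1 the fit of all 66 libraries called 5786 genes without the library set term and 3291 with it. The causes of these changes were not tested.

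The numbers of the replicates did not pair the samples. With the replicate number as a block the counts were 1327 for the 24 h difference, 4132 for AMO1, 441 for L363 and 1918 at 6 h.

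Of 114 genes under the naming rule 95 were called, 73 of them also in all 12 fits that left out 1 library and 68 under all 23 alternatives. The difference changed sign for FAM110B with NCP22 controls (0.066), and for CCND2, which was not called, with NCP22 (0.33) and halofuginol controls (0.28), when a library was left out (-0.23 to 0.24, the latter without replicate 2 of L363 DMSO) and without both libraries (0.26). Depth was 1666325 to 5005629 counts, so genes near 10 counts in a library were filtered or imprecise.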

Other observations

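The 20 L363 genes include the efflux pump gene ABCB1, its genomic neighbour CROT, and NES, HMOX1, SMOC1 and MAP1A. In the 6 h DMSO libraries their mean levels in AMO1 and L363 were 246.6 and 1647 CPM for ABCB1, 27.4 and 172 CPM for CROT, and 202 and 1179 CPM for NES. The AMO1 genes include GSTP1, a glutathione transferase (366 and 0.392 CPM), the regulator of G protein signalling RGS1 (201 and 0.135 CPM) and the ubiquitin hydrolase UCHL1 (124 and 0.451 CPM). The rule for the AMO1 genes allowed at most 1 CPM in L363, while that for the L363 genes asked only for a 4-fold level. Levels near 0 of the AMO1 genes in L363 with DMSO at 6 h were therefore fixed by the choice. With the same limit of 1 CPM in both directions, 74 genes were AMO1 genes and 1 was an L363 gene. Genotypes of the libraries were not analysed here.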
